A study of Mus musculus with 4 samples.

Results

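Glutamate excites neurons mainly through AMPA and NMDA receptors, and the transmembrane AMPA receptor regulatory proteins (TARPs) carry AMPA receptors to the synapse and hold them there. The 10 genes described here were chosen by symbol: the AMPA receptor subunits Gria1, Gria2, Gria3 and Gria4, the NMDA receptor subunits Grin1, Grin2a and Grin2b, and the TARPs Cacng2, Cacng3 and Cacng8. All 10 were found, each as 1 row in every table, among the 21719 genes kept. They were measured by sequencing of polyA RNA from hippocampal neurons of CD1 mice, an outbred strain, taken on postnatal day 0 and grown for 11 days in vitro (DIV). Every culture was infected with lentivirus on DIV 4. The vector cultures received the pLKO.1 vector, with no control hairpin named in the labels, and the shRNA cultures received 1 short hairpin RNA against Kdm6b, a histone demethylase. At DIV 11 each kind of culture was harvested either untreated or after 3 h in bicuculline (labelled 50µm, taken here as micromolar) and 2.5 mM 4-aminopyridine, together called Bic/4AP. Bicuculline removes GABA-A receptor inhibition and 4-aminopyridine slows the repolarisation of axons, so that the network fires more. There was 1 library for each of the 4 groups, and the labels do not say how many animals or dishes went into it. Without replicates no difference could be tested, and every comparison below is between single libraries.

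AMPA receptors are assemblies of the Gria subunits and carry most fast excitatory current. NMDA receptors need Grin1 together with Grin2 subunits, of which Grin2b prevails in young forebrain neurons and Grin2a gains ground as they mature. Cacng2, also named stargazin, is the founding TARP, Cacng8 is abundant in the hippocampus, and Cacng3 is a close relative of both. In cultured neurons a long-lasting increase in firing is known to scale down AMPA receptors at synapses. The 3 h treatment here was measured at the level of RNA.

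The AMPA subunits share a codon in the pore loop, the Q/R site, that bears on the calcium permeability of the channel. It is shown here because the share of Gria2 among the AMPA transcripts is 1 of the quantities compared below. Each line holds 30 bases of the GENCODE transcript around this site, 5′ to 3′, with the codon in capitals.
Gria1: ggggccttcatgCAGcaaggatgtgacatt
Gria2: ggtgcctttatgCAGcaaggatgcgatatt
Gria3: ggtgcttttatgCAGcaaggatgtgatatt
Gria4: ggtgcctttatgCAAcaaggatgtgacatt
All 4 genomic codons encode glutamine. In Gria2 the adenosine of this codon is edited in the RNA by Adarb1 (ADAR2), which gives arginine and a channel with little calcium permeability. The codon is residue 600 of 907 in Gria1, 607 of 883 in Gria2, 612 of 888 in Gria3 and 608 of 902 in Gria4. It lies in coding exon sequence, exon 11 of 16 in Gria1, Gria2 and Gria3 and exon 12 of 17 in Gria4. In build GRCm38 the Gria2 codon is at chr3:80706911-80706913 on the minus strand. The 30 bases were identical at 26 positions (Gria1 with Gria2 or Gria3) to 28 positions (Gria2 with Gria3). The tables give the amount of Gria2 RNA and do not distinguish edited from unedited transcripts.

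The hairpin sequence in the labels was compared with the members as well. Capitals mark the longest run found in a Kdm6b transcript.
Kdm6b shRNA: CTGTTCTTGAGGGACAAActc
The first 18 of its 21 bases were found in Kdm6b. The longest run shared with a transcript of a member was 7 bases (Gria1) to 10 bases (Gria2). It was 8 bases for Cacng2, at bases 2 to 9 of the hairpin sequence, and 8 bases for Cacng3, at its last bases, 14 to 21. Shorter runs were not listed, and effects of the hairpin on genes other than Kdm6b were not tested.

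The libraries were of similar depth. Levels are FPKM, fragment counts scaled by transcript length and sequencing depth, and the authors' lower and upper bounds follow in parentheses. The bounds hold the error of counting and of assigning reads inside a single library, and differences between cultures are not in them. Read totals are not given in the tables, and the width of the bounds put the depth of the libraries at 0.932 to 1.04 of that of the untreated vector library. Kdm6b stood at 6.74 FPKM in untreated vector cultures, 13.1 with Bic/4AP, 2.73 with the shRNA and 4.83 with both, which left the shRNA libraries at 40.6% of their vector counterparts without treatment and at 36.8% after it. The activity-induced genes Fos (12.5 and 771 FPKM in vector cultures), Npas4 (1.52 and 340) and Arc (4.89 and 165) were far higher with Bic/4AP, and in the shRNA cultures Fos stood at 15.3 and 765. The cultures were mixed. Markers of neurons in general summed to 1661 to 2245 FPKM over 7 genes, of excitatory neurons to 430 to 674 over 9 genes, and of inhibitory neurons to 562 to 1169 over 9 genes. Astrocyte markers summed to 2790 to 3137 over 8 genes, oligodendrocyte lineage markers to 67.4 to 90.2 over 8 genes, and microglia markers to 17.1 to 40.01 over 8 genes.

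Gria1, Grin1 and Gria2 were the most abundant of the 10 in every library. In untreated vector cultures the order per transcript length was Gria1, Grin1, Gria2, Cacng8, Gria3, Gria4, Cacng3, Cacng2, Grin2b and Grin2a. Only the last pair had overlapping bounds there. Gria1 lay above 96.3% of all genes and Grin2a above 52.1%. With Bic/4AP in vector cultures Gria3, Cacng8 and Gria4 formed a run of neighbours with overlapping bounds, as did Grin2a and Grin2b. In untreated shRNA cultures Gria1 and Gria2 overlapped, Gria2 stood above Grin1, and Grin2a stood above Grin2b with bounds apart. With the shRNA and Bic/4AP only Gria3 and Cacng8 overlapped. FPKM between genes depends on the transcript length the authors used. The table locus of Grin2a spans nearly the same bases as a transcript of 4395 nt while the longest annotated one has 14634 nt, and the corresponding lengths for Grin2b were 7484 and 24060 nt. For Gria2 the transcript closest in span has 4026 nt and the longest 10371 nt.

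**Figure D1:**
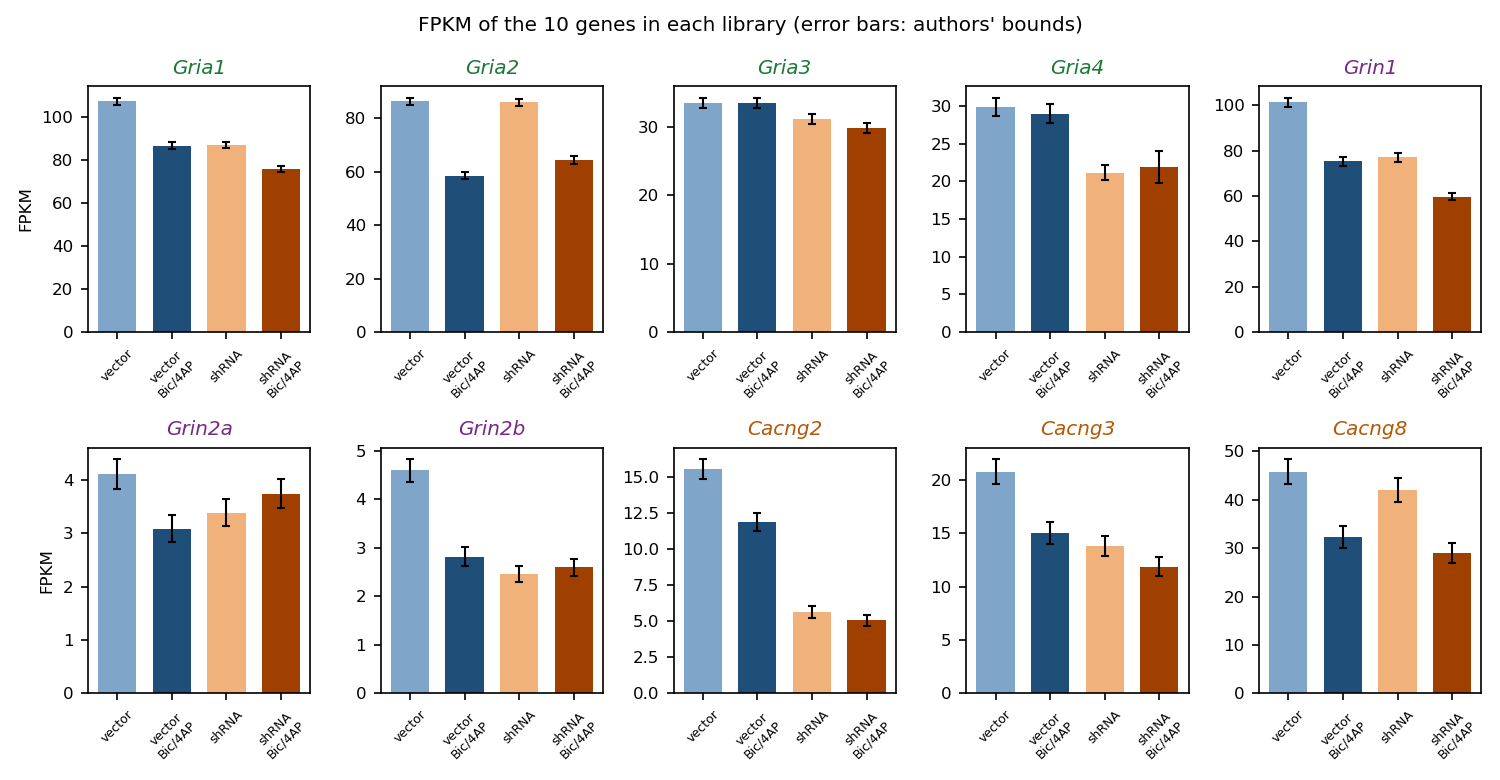
FPKM (vertical axes, each starting at 0) of the 10 genes in the 4 libraries, with error bars for the authors' bounds within 1 library. Blue bars are vector and orange bars shRNA cultures, the darker bar of each colour with Bic/4AP, and 9 of the 10 genes are highest in the untreated vector library.

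The AMPA subunit genes spanned levels from 21.2 FPKM, the lowest value of Gria4, to 107 FPKM, the highest of Gria1. Gria1, the subunit whose receptors are inserted during potentiation, lies at chr11:56825193-57143746 (mm9, as all gene positions below). It stood at 107 FPKM (106 to 109) in untreated vector cultures, 86.9 (85.3 to 88.4) with Bic/4AP, 86.9 (85.5 to 88.4) with the shRNA and 76.1 (74.8 to 77.4) with both. The 2 single manipulations thus gave nearly the same Gria1 level, and the library with both was the lowest. Gria2, the subunit that sets calcium permeability, lies at chr3:80488858-80606713. Its levels were 86.3 FPKM (84.9 to 87.7), 58.4 (57.1 to 59.8), 86.0 (84.6 to 87.3) and 64.4 (63.1 to 65.8) in the same order of libraries. The 2 untreated libraries had overlapping Gria2 bounds, and both Bic/4AP libraries lay below them. Gria3, at chrX:38754481-39031778, was the steadiest of the 10, with 33.5 FPKM (32.7 to 34.2), 33.5 (32.7 to 34.3), 31.2 (30.5 to 31.9) and 29.9 (29.1 to 30.6), a ratio of 1.12 between the highest and the lowest library. Gria4, the subunit typical of interneurons in the mature forebrain, lies at chr9:4417893-4796234 and stood at 29.9 FPKM (28.7 to 31.1), 29.0 (27.7 to 30.3), 21.2 (20.1 to 22.2) and 21.9 (19.8 to 24.0). Gria4 split by virus, with both vector libraries above both shRNA libraries and overlapping bounds within each kind of culture.

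By FPKM the NMDA subunit members were split between a high obligatory subunit and a low pair. The values of the pair depend on the transcript lengths the authors used, as noted above. Grin1, present in every NMDA receptor, lies at chr2:25146697-25174683 and stood at 101 FPKM (99.4 to 103), 75.4 (73.4 to 77.4), 77.2 (75.2 to 79.2) and 59.7 (58.0 to 61.4) in untreated vector, Bic/4AP vector, untreated shRNA and Bic/4AP shRNA cultures. The pattern resembles that of Gria1, with the single manipulations at overlapping levels and the lowest value where they were combined. An antisense gene, Grin1os, covers 29.9% of the annotated exon bases of Grin1, and no strand setting is given in the sources used here, so reads of the 2 genes cannot be told apart there. Grin2a, the subunit of mature receptors with fast decay, lies at chr16:9577803-9992626 and stood at 4.10 FPKM (3.82 to 4.38), 3.08 (2.83 to 3.33), 3.38 (3.13 to 3.64) and 3.74 (3.47 to 4.01). Grin2b, the subunit of juvenile receptors with slow decay, lies at chr6:135679823-136123529 and stood at 4.60 FPKM (4.37 to 4.83), 2.82 (2.64 to 3.01), 2.46 (2.29 to 2.62) and 2.60 (2.43 to 2.77). For Grin2b the untreated vector library stood alone at the top, and the other 3 libraries lay between 2.46 and 2.82 FPKM.

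The TARP genes held the widest difference among the members and differed from each other in pattern. Cacng2, at chr15:77824053-77949710, stood at 15.5 FPKM (14.8 to 16.2) in untreated vector cultures, 11.9 (11.2 to 12.5) with Bic/4AP, 5.67 (5.25 to 6.08) with the shRNA and 5.06 (4.66 to 5.46) with both. The highest library was 3.07 times the lowest, the widest range of the 10, and the 2 shRNA libraries overlapped far below both vector libraries. Antisense gene A730060N03Rik covers 5.86% of the annotated Cacng2 exon bases. Cacng3, at chr7:129815258-129912907, stood at 20.8 FPKM (19.6 to 21.9), 14.98 (13.97 to 15.99), 13.8 (12.9 to 14.7) and 11.8 (11.0 to 12.7). Cacng8, at chr7:3394459-3415366, stood at 45.8 FPKM (43.2 to 48.4), 32.3 (30.01 to 34.5), 42.0 (39.6 to 44.5) and 29.1 (26.99 to 31.1). Cacng8 split by treatment instead, with overlapping bounds between vector and shRNA both untreated and with Bic/4AP. The upper bound lay 1.55% to 9.48% above the value over all members and libraries.

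The first comparison asked how 3 h of raised firing went with these transcripts in vector cultures. NMDA subunits, TARPs and the AMPA subunits Gria1 and Gria2 were lower with Bic/4AP, while the bounds of Gria3 and Gria4 overlapped those without treatment. Gria2 was at 0.677 times its untreated FPKM (0.651 to 0.704 from the outer bounds) and Gria1 at 0.809 times (0.782 to 0.836). Gria3 was at 1.001 times (0.957 to 1.05) and Gria4 at 0.969 times (0.891 to 1.05), so the 4 AMPA subunits formed a lower pair and a pair with overlapping bounds. Among the NMDA subunits Grin2b was at 0.614 times (0.546 to 0.689), Grin1 at 0.744 times (0.710 to 0.779) and Grin2a at 0.751 times (0.645 to 0.873). The TARPs lay close together at 0.705 times for Cacng8 (0.620 to 0.799), 0.722 for Cacng3 (0.638 to 0.815) and 0.764 for Cacng2 (0.693 to 0.843). Summed over the members, AMPA transcripts were at 0.808 times, NMDA transcripts at 0.739 times and TARP transcripts at 0.720 times the untreated level. Grin1 held 101 of the 110 FPKM of the NMDA sum in untreated vector cultures. Other NMDA subunit and TARP genes are not in these sums, among them Cacng7, at 76.4 FPKM untreated and 67.6 with Bic/4AP.

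Counts over all genes give the scale for these values. The members were chosen with earlier results of these data known, so these counts are a description and no test. Differences were taken in log2(FPKM + 1), which understates the differences of genes with low FPKM such as Grin2a and Grin2b. A gene was compared where 1 of the libraries had an FPKM of at least 1. On that scale 5 of the 10 members (Gria2, Grin1, Grin2b, Cacng3 and Cacng8) were at least 1.3-fold lower with Bic/4AP in vector cultures, against 12.6% of the 13217 genes compared, and none was 1.3-fold higher, against 9.13%. The authors' bounds did not overlap, with Bic/4AP lower, for 8 of 10 members (all but Gria3 and Gria4) against 37.0% of genes. With Bic/4AP higher this held for 0 against 21.8%. Here and below, such counts also depend on the width of the bounds, which differs with level. Genes of like level were not compared. The median difference was -0.39 over the members, with 9 of 10 below 0, and -0.07 over all genes, with 7886 of 13217 below 0. Gria2 (-0.55) and Grin2b (-0.55) ranked 594 and 607 from the lowest. No member reached 2-fold. Excitatory neuron markers had a median difference of -0.18 in the same comparison, with 7 of 9 below 0 and 3 of 9 at least 1.3-fold lower. Their sums were 492 FPKM with Bic/4AP against 674 untreated, with Slc17a7 at 206 against 307. Neuronal markers in general had a median of -0.24 with 6 of 7 below 0. Their sums were 2192 against 2245 FPKM, with Nefl higher at 530 against 258 FPKM. The medians were -0.02 for inhibitory neuron markers, 0.07 for astrocyte markers, -0.08 for oligodendrocyte lineage markers and -0.09 for microglia markers. The part of all these markers in the result was not tested. In such bulk RNA, fewer cells of a type and less RNA per cell cannot be told apart.

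**Figure D2:**
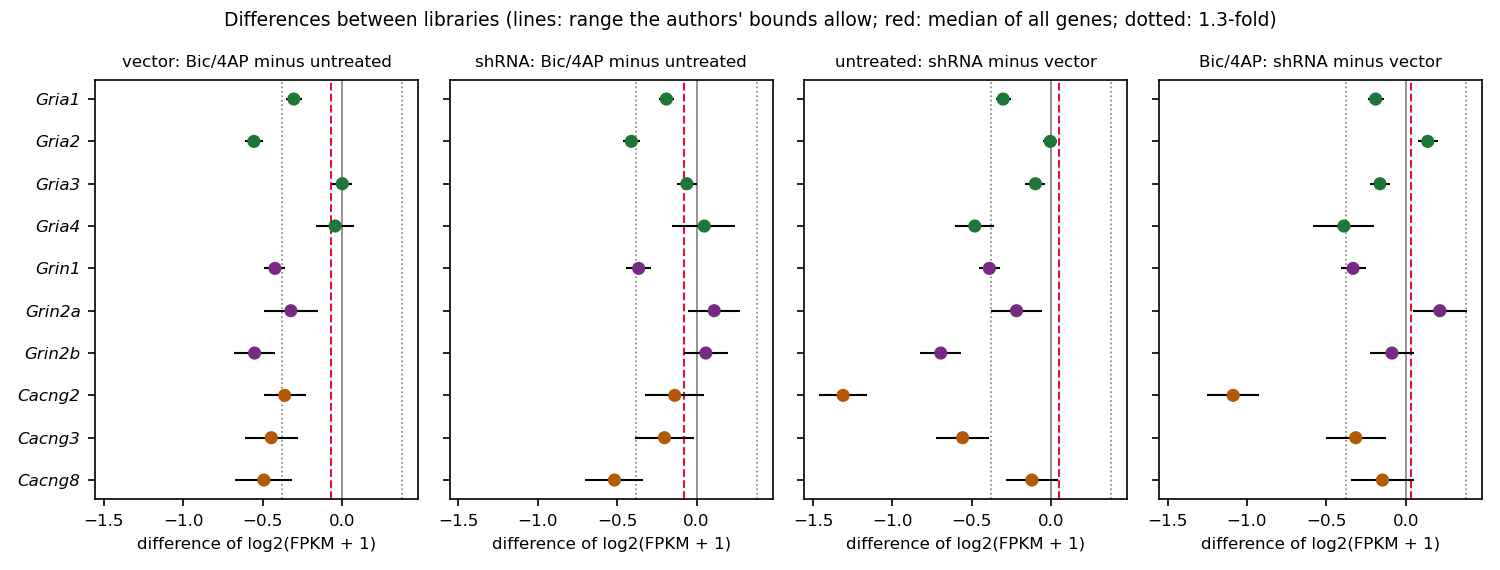
Difference of log2(FPKM + 1) for each gene (horizontal axes) in the 4 comparisons, 1 panel each, with lines for the range that the authors' bounds allow, a red dashed line at the median of all genes and dotted lines at 1.3-fold. Cacng2 lies at -1.31 and -1.09 in the shRNA comparisons, apart from the other members, and Gria3 and Gria4 lie near 0 in both Bic/4AP comparisons.

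With the Kdm6b shRNA the same treatment went with a lower level of fewer members. Gria2 was at 0.749 times its untreated level (0.722 to 0.777), Cacng8 at 0.692 times (0.607 to 0.787) and Grin1 at 0.774 times (0.733 to 0.817). Gria1 was at 0.875 times (0.846 to 0.905) and Cacng3 at 0.860 times (0.747 to 0.989). The bounds of the other 5 overlapped between untreated and Bic/4AP, with ratios of 0.957 for Gria3, 1.04 for Gria4, 1.10 for Grin2a, 1.06 for Grin2b and 0.893 for Cacng2. Of the 10 members 2 (Gria2 and Cacng8) were at least 1.3-fold lower, against 9.57% of the 13320 genes compared, and 0 were 1.3-fold higher, against 6.94%. Bounds apart with Bic/4AP lower were found for 5 of 10 members against 37.6% of genes, and with Bic/4AP higher for 0 against 17.0%. The median difference was -0.16 over the members and -0.08 over all genes. Cacng8 (-0.52) ranked 512 from the lowest. Markers of inhibitory neurons were higher in the Bic/4AP library of this pair, with a median of 0.28, 7 of 9 above 0 and 4 of 9 at least 1.3-fold higher, and sums of 825 against 562 FPKM, led by Sst (0.87) and Npy (0.80). Excitatory markers had a median of -0.11 with 6 of 9 below 0, although Tbr1 and Slc17a6 both stood at 0.69. The medians were -0.11 for general neuronal markers, 0.08 for astrocyte markers, -0.18 for oligodendrocyte lineage markers and 0.02 for microglia markers, and the part of these markers in the members' differences was not tested.

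The next comparison set untreated shRNA against untreated vector cultures. All 10 members had a lower value than in vector cultures, against 5469 of the 13295 genes compared. The bounds overlapped for Gria2 and Cacng8, and Cacng2 stood apart from the rest. Cacng2 was at 0.365 times its vector level (0.324 to 0.410), a difference of -1.31 that ranked 27 from the lowest of 13295 genes. Next came Grin2b at 0.534 times (0.475 to 0.6002) and Cacng3 at 0.664 times (0.587 to 0.7496). Gria4 was at 0.707 times (0.647 to 0.773), Grin1 at 0.761 (0.727 to 0.797), Gria1 at 0.809 (0.783 to 0.836) and Grin2a at 0.825 (0.715 to 0.953). Gria3 was at 0.932 times (0.891 to 0.975). The bounds of the 2 libraries overlapped for Cacng8, at 0.918 times (0.818 to 1.03), and for Gria2, at 0.996 times (0.965 to 1.03). Members of 1 family thus differed widely, from 0.365 to 0.918 among the TARPs and from 0.707 to 0.996 among the AMPA subunits.

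In this comparison 5 of 10 members (Gria4, Grin1, Grin2b, Cacng2 and Cacng3) were at least 1.3-fold lower with the shRNA, against 7.27% of genes, and 0 were 1.3-fold higher, against 9.39%. Cacng2 was the 1 member at least 2-fold lower, against 0.669% of genes. Bounds apart with the shRNA lower were found for 8 of 10 members against 22.2% of genes, and with the shRNA higher for 0 against 33.1%. The median difference was -0.35 over the members and 0.05 over all genes. Neuronal markers were lower in the same library. The inhibitory neuron markers had a median of -0.57 with 7 of 9 at least 1.3-fold lower. Their sum was 562 against 1169 FPKM, with Sst at 225 against 539. The excitatory markers had a median of -0.20 with 8 of 9 below 0 and sums of 491 against 674 FPKM. Slc17a7, at 185 against 307 FPKM, was the only 1 of them at least 1.3-fold lower. The general neuronal markers had a median of -0.14 with 7 of 7 below 0 and sums of 1661 against 2245 FPKM. Most of the gap in these general markers was Stmn2 alone, at 288 against 731 FPKM. Without this gene, set apart after its value was seen, the sums were 1374 against 1514 FPKM. Microglia markers had a median of -0.71 with 5 of 6 below 0 and sums of 17.7 against 40.01 FPKM. Oligodendrocyte lineage markers had a median of -0.28 with 5 of 5 below 0 and sums of 71.1 against 82.4 FPKM. Astrocyte markers had a median of 0.02 with 5 of 8 above 0, and sums of 2790 against 2900 FPKM, in which Aldoc (387 against 500.05) and Slc1a2 (75.4 against 125) were lower. No list of markers was at 0 in a library, and the part of these markers in the members' differences was not tested.

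With Bic/4AP in both cultures, the shRNA library was again low in Cacng2, at 0.426 times the vector level (0.373 to 0.486), a difference of -1.09 that ranked 57 from the lowest of 13240 genes. Gria4 was at 0.756 times (0.655 to 0.865), Cacng3 at 0.791 (0.686 to 0.911) and Grin1 at 0.792 (0.749 to 0.837). Gria1 was at 0.876 times and Gria3 at 0.891 times. Gria2 and Grin2a lay on the other side, at 1.10 times (1.06 to 1.15) and 1.21 times (1.04 to 1.42). Bounds overlapped for Grin2b, at 0.921 times, and for Cacng8, at 0.901 times. Of the 10 members 2 (Gria4 and Cacng2) were at least 1.3-fold lower, against 5.89% of genes, and 0 were 1.3-fold higher, against 6.56%. Cacng2 was the 1 member at least 2-fold lower, against 0.536% of genes. Bounds apart with the shRNA lower were found for 6 of 10 members against 21.1% of genes, and with the shRNA higher for 2 of 10 against 28.6%. The median difference was -0.18 over the members and 0.03 over all genes. Inhibitory neuron markers had a median of -0.43 and a sum of 825 against 1160 FPKM. Excitatory markers had a median of 0.06 with 5 of 9 above 0, and sums of 430 against 492 FPKM, with Slc17a7 lowest at -0.46. General neuronal markers had a median of -0.03 with 4 of 7 below 0, and sums of 1855 against 2192 FPKM. Stmn2 stood at 277 against 644 FPKM, and without this gene the sums were 1577 against 1548 FPKM. Astrocyte markers had a median of 0.05. Microglia markers had a median of -0.82 with 4 of 6 at least 1.3-fold lower and sums of 17.1 against 37.4 FPKM. Oligodendrocyte lineage markers had a median of -0.43 with 3 of 5 at least 1.3-fold lower and sums of 67.4 against 90.2 FPKM. The part of these markers was not tested either. This comparison and the untreated one share no library, but each shares a library with both Bic/4AP comparisons.

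**Figure D3:**
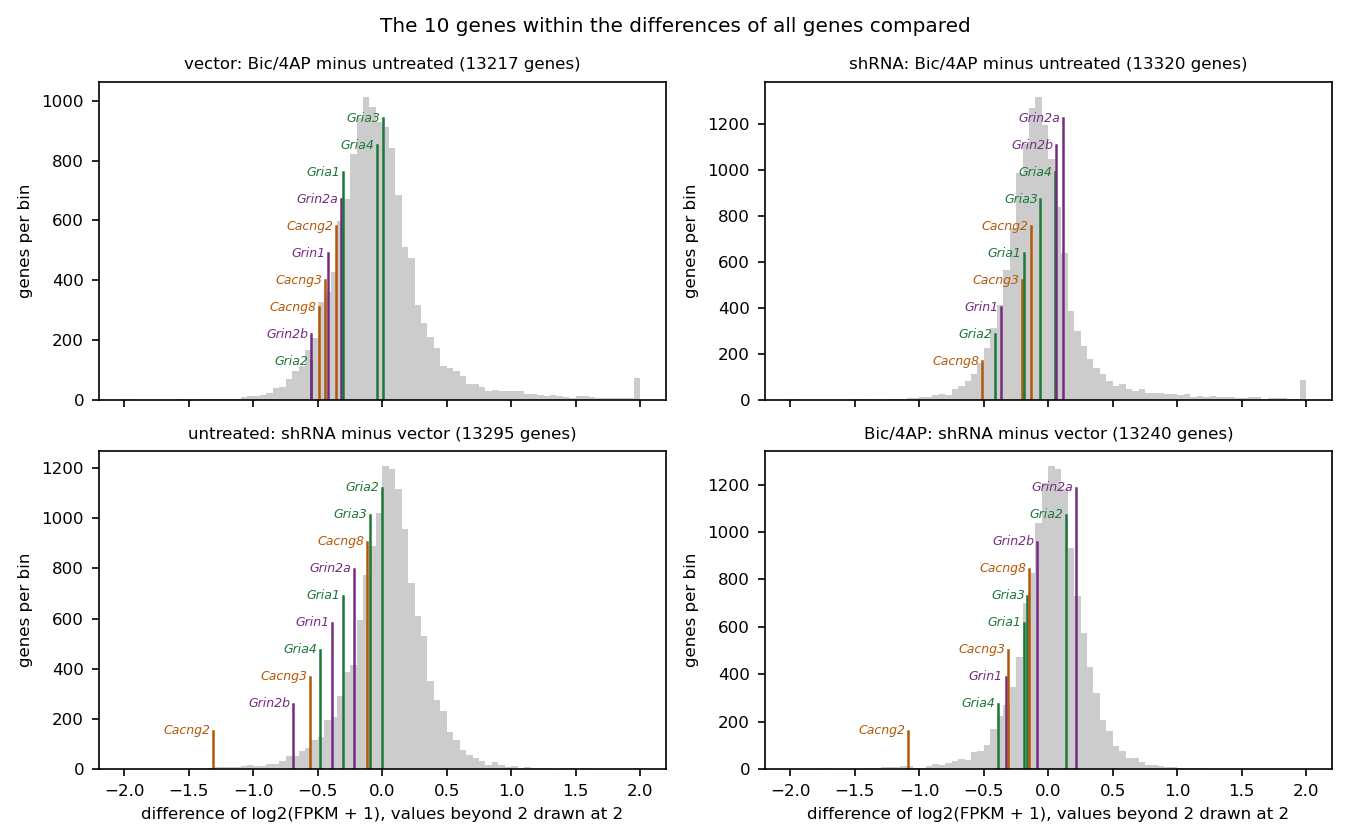
Histograms of the difference of log2(FPKM + 1) over all genes compared (grey, genes per bin of the horizontal axis) with a coloured line at each of the 10 genes, green for AMPA subunits, purple for NMDA subunits and brown for TARPs. Cacng2 lies in the lower tail of both shRNA comparisons, and Gria2 and Grin2b are the lowest members with Bic/4AP in vector cultures.

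The make-up of the members of each family follows from these values. Gria2 made up 33.6% of AMPA subunit FPKM (32.7 to 34.4) in untreated vector cultures and 28.1% (27.2 to 29.1) with Bic/4AP. It made up 38.2% (37.3 to 39.1) in untreated shRNA cultures and 33.5% (32.3 to 34.7) with Bic/4AP. In both kinds of culture the Gria2 share was therefore lower with Bic/4AP, with bounds apart, and the share with both shRNA and Bic/4AP overlapped that of untreated vector cultures. The ratio of Gria2 to Gria1 was 0.803, 0.673, 0.989 and 0.847 in the same order. The size of such shares and ratios also depends on the transcript lengths the authors used, as noted above for Gria2. Gria1 held 38.6% to 41.8% of the AMPA sum, Gria3 13.0% to 16.1% and Gria4 9.39% to 14.0%. Adarb1, which edits the Gria2 codon shown above, stood at 19.3, 16.3, 14.9 and 14.4 FPKM.

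The ratio of Grin2a to Grin2b was 0.892 (0.791 to 1.004) in untreated vector cultures and 1.09 (0.939 to 1.27) with Bic/4AP. It was 1.38 (1.195 to 1.59) in untreated shRNA cultures and 1.44 (1.25 to 1.65) with Bic/4AP. The bounds of the untreated vector library lay below those of both shRNA libraries, whose bounds overlapped each other. Grin1 stood at 9.42 to 13.2 times the sum of Grin2a and Grin2b. The size of these ratios depends on the transcript lengths used for Grin2a and Grin2b, and reads of Grin1os may be counted in Grin1. Of the summed FPKM of Cacng2, Cacng3 and Cacng8, Cacng2 made up 18.9% and 20.1% in vector cultures and 9.22% and 11.0% in shRNA cultures. Cacng8 made up 55.8% and 54.6% of this sum against 68.4% and 63.2%. Cacng3 held 22.4% to 25.8% throughout. The sum of the 3 TARP members was 0.319 times the AMPA sum in untreated vector cultures, 0.284 with Bic/4AP, 0.273 with the shRNA and 0.239 with both. Cacng4, Cacng5 and Cacng7 are outside this sum, so the ratio holds for these members only. In the same order Cacng7 stood at 76.4, 67.6, 79.5 and 72.0 FPKM. Cacng4 stood at 20.6, 13.8, 18.2 and 14.9, and Cacng5 at 10.2, 5.58, 13.0 and 5.67.

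**Figure D4:**
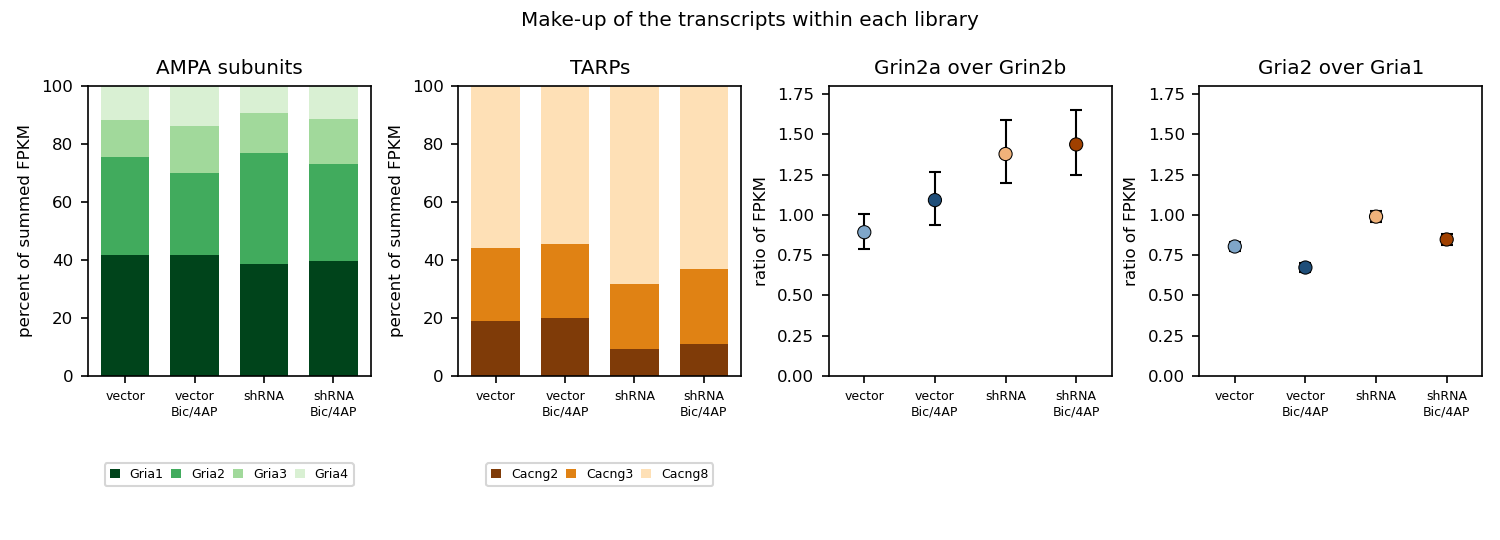
Shares in percent of the summed FPKM of the AMPA subunits and of Cacng2, Cacng3 and Cacng8 (stacked bars, left) in the 4 libraries. On the right are the ratios Grin2a over Grin2b and Gria2 over Gria1 (points with the range that the authors' bounds allow). The Gria2 share runs from 28.1% to 38.2%, and the Cacng2 share is 18.9% and 20.1% in vector against 9.22% and 11.0% in shRNA cultures.

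The Bic/4AP difference in shRNA cultures minus that in vector cultures was above 0 for 8 of 10 members, against 45.1% of 13458 genes, with medians of 0.13 and -0.02. Grin2b had the largest value of the members, 0.61, which 0.594% of genes exceeded, and Grin2a followed with 0.43, exceeded by 1.73%. Both values depend on the pseudocount, with 0.76 and 0.54 at 0.1 and with 0.32 and 0.23 at 5. Cacng3 (0.24), Cacng2 (0.22), Gria2 (0.14), Gria1 (0.11), Gria4 (0.09) and Grin1 (0.06) were smaller, and Cacng8 (-0.02) and Gria3 (-0.06) lay below 0. The bounds allow a range for each Bic/4AP difference. The ranges in vector and in shRNA cultures overlapped for Cacng3, Cacng2, Gria4, Grin1, Cacng8 and Gria3. They lay apart for Grin2b, Grin2a, Gria2 and Gria1. Grin2b and Cacng2 started lower in untreated shRNA cultures, and the same untreated library enters both the hairpin difference and the Bic/4AP difference. With 1 library per group this interaction could not be tested.

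Other glutamate receptor genes were set beside the members by list. In vector cultures with Bic/4AP none of them was 1.3-fold higher. The NMDA subunits Grin2d (-0.49) and Grin3a (-0.59) were both at least 1.3-fold lower, and Grin2c and Grin3b stayed under 1 FPKM. Of 10 other TARPs and AMPA receptor auxiliary proteins 7 were at least 1.3-fold lower, with a median of -0.45, from Cacng7 (-0.18) to Cacng5 (-0.77). Of 9 kainate and delta receptor genes 5 were lower, with a median of -0.45, from the kainate receptor auxiliary gene Neto2 (-0.10) to the kainate subunit gene Grik3 (-0.93). Of 7 metabotropic receptor genes compared 6 were lower, with a median of -0.52, from Grm3 (-0.28) to Grm7 (-1.16), which stood at 16.3 FPKM untreated and 6.73 with Bic/4AP. Of 14 anchoring and trafficking genes 6 were lower, with a median of -0.33, from the scaffold gene Dlg1 (0.28) to Akap5 (-0.86), which anchors kinases near AMPA receptors. The editing enzymes Adarb1 (-0.23) and Adarb2 (-0.67) completed the lists. The medians of the members themselves were -0.17 for AMPA subunits, -0.42 for NMDA subunits and -0.45 for TARPs.

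In untreated shRNA cultures the other lists, apart from the other NMDA subunits, lay nearer to 0 than the NMDA and TARP members. The auxiliary proteins had a median of -0.18 with 1 of 10 at least 1.3-fold lower, from Cacng5 (0.32) to Gsg1l (-0.50), and no other TARP came near Cacng2 at -1.31. Kainate and delta receptor genes had a median of -0.21 with 3 of 9 lower, from Grik3 (0.08) to Grik4 (-0.63). Metabotropic receptor genes had a median of -0.33 with 2 of 7 lower, from Grm7 (0.14) to Grm2 (-0.79). Anchoring and trafficking genes had a median of -0.16 with 0 of 14 lower, from Dlg2 (-0.03) to Dlg1 (-0.35), and the editing enzymes stood at -0.21 for Adarb2 and -0.35 for Adarb1. Grin2d (-0.55) and Grin3a (-0.37) resembled the NMDA members, whose median was -0.39, and the TARP members had a median of -0.56. Medians in shRNA cultures with Bic/4AP against untreated ran from -0.17 to -0.48 over these lists, and with Bic/4AP in both cultures from -0.02 to -0.16.

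**Figure D5:**
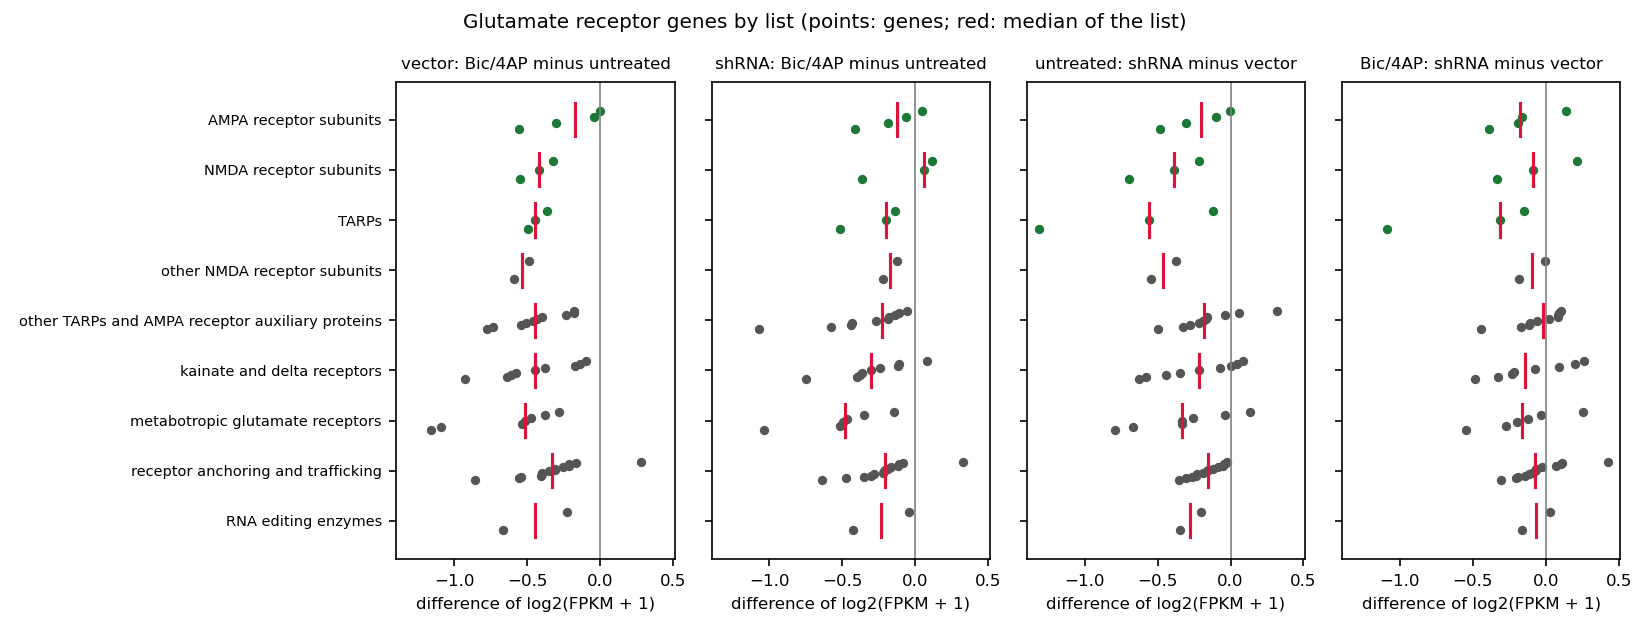
Difference of log2(FPKM + 1) of each gene (points, horizontal axes) by list in the 4 comparisons, with a red bar at the median of the list and the 10 members in green. In vector cultures with Bic/4AP nearly every point lies left of 0, with Dlg1 at 0.28 as the highest.

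Promoter sequence from RefSeq (GRCm38.p6) was found for 6 of the 10 members, namely Gria2, Gria4, Grin1, Cacng2, Cacng3 and Cacng8. The 250 bases upstream of each start were searched on both strands for 5 motifs of activity-regulated or neuronal promoters. These were TGACG (the core of the cyclic AMP response element, CRE), TGANTCA (AP-1), GGGCGG (GC box), CAGCACC (part of the RE1 element) and GTGGGCG (Egr). Over 32851 promoters the shares with a match were 17.8%, 6.75%, 32.7%, 5.73% and 7.02% in that order. Grin1 was the only 1 of the 6 with any match. Its upstream sequence at chr2:25319188-25319437 on the minus strand is shown because of these matches, with the Egr and CRE cores in capitals, the CRE cores as their reverse complement.
Grin1: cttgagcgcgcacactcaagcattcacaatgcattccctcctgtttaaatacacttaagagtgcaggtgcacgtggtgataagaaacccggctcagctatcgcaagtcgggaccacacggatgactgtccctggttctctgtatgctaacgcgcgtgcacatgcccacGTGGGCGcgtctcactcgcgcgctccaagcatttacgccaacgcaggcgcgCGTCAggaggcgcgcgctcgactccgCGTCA
The Egr core begins 82 bases before the start and the CRE cores at 31 and 5 bases before it. Within this window Grin1 had 27 CpG dinucleotides and 58.8% G and C, against medians of 6 and 52.4% over all promoters. A match of letters is a description and no evidence of binding in these cultures.

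Genes of like pattern were sought among the 9203 other genes that reached 5 FPKM in each of the 4 libraries, by the Euclidean distance of their 4 centred log2(FPKM + 1) values to the median profile of each family. Nearest to the AMPA subunits were Epb4.1l3 (distance 0.0297), Fam108a (0.0307) and Rprd1a (0.0313). Nearest to the NMDA subunits were the small GTPase gene Rab15 (0.0586), the protein kinase gene Prkcb (0.0633) and Nprl2 (0.0736). Nearest to the TARPs were the orphan receptor gene Gpr158 (0.0390), the neuronal calcium sensor gene Ncald (0.0429) and the neuronal enolase gene Eno2 (0.0475). Among the genes near Cacng2, the member with the widest range, were the histone RNA processing gene Lsm11 (0.105) and the deubiquitinase gene Usp46 (0.115). These likenesses rest on 4 libraries.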

How the data were processed

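PolyA-enriched RNA from 4 cultures was sequenced with the Illumina TruSeq kit, per the labels' protocols, 1 library for each group. The deposited tables hold FPKM values that the authors computed, with a lower and an upper bound, for 22878 rows. Mouse build mm9 and the tools Cufflinks 2.0.2, TopHat2 2.0.8b and CASAVA 1.8 are listed in the submitters' processing notes. The annotation and strand setting are not given in the sources used here. FPKM depends on the transcript models and on the rest of the library. Read totals were not used here, so precision was taken from the authors' bounds.

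Rows of 1 symbol were summed, and 773 of 22492 symbols (small RNA genes, and symbols with a row marked as failed) were left out, which left 21719 genes. Differences were taken in log2(FPKM + 1), for genes that reached 1 FPKM in either library compared. A gene was counted as lower or higher at 1.3-fold on that scale. Non-overlapping bounds and 2-fold were also counted. Ratios are of FPKM without the added 1, and their ranges set the lower bound of each library against the upper bound of the other. The script was tested on simulated data with known differences.

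The text names all 10 members, Kdm6b, Fos, Npas4 and Arc as checks of the labels, the highest and lowest gene of each other list in the vector Bic/4AP and the untreated shRNA comparison, and the 3 nearest genes by pattern. Grin2c, Grin3b, single marker genes and further values of listed genes, Adarb1 among them, were added after their values were seen. The members and lists were chosen with earlier results of these data known. Some items are not reported here. Of the listed genes Syndig1, Frrs1l, Adar and Map2 were not found by symbol and were not analysed here. Transcripts and exons are from GENCODE mouse release M21 (GRCm38) and promoters from RefSeq (GRCm38.p6). They were matched by symbol, with no position converted between builds. The alternatives, each run alone, were pseudocounts of 0.1 and 5, a filter at 5 FPKM and none, 3 scalings between libraries, a call at 2-fold or with bounds apart in addition, and the highest row of a symbol in place of the sum. Python 3.11.15, pandas 2.3.3, numpy 2.4.6 and matplotlib 3.10.9 were used.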

Additional observations from a re-analysis of the deposited data

Results flagged for a closer look

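For 4 members the Bic/4AP difference had opposite signs in vector and shRNA cultures, each on 1 library per group, and the difference between the cultures was not tested. Grin2b stood at -0.55 in vector and 0.06 in shRNA cultures, a gap of 0.61 on the log2(FPKM + 1) scale. Grin2a stood at -0.32 and 0.11, a gap of 0.43. For both Grin2b and Grin2a the bounds of untreated and Bic/4AP were apart in vector cultures but overlapped in shRNA cultures. Gria4 stood at -0.04 and 0.05, a gap of 0.0917, and Gria3 at 0.002 and -0.06, a gap of -0.0631, and the bounds of both genes overlapped between untreated and Bic/4AP in each kind of culture.

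For 2 members the shRNA difference had opposite signs untreated and with Bic/4AP, which was not tested either. Gria2 stood at -0.01 untreated, with overlapping bounds, and 0.14 with Bic/4AP, a gap of 0.14. Grin2a stood at -0.22 and 0.22, a gap of 0.43, with bounds apart in both states. All these gaps rest on the same 4 libraries.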

How the results depend on the processing

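No paired analysis was possible because each group had 1 library. The count of members at least 1.3-fold lower with Bic/4AP in vector cultures was 5, and it was 3 with a pseudocount of 5, 3 with median-ratio scaling, 0 at 2-fold, 7 with a pseudocount of 0.1, 6 with a common sum and 4 with the filter at 5 FPKM. In shRNA cultures it was 2, and 1 with median-ratio scaling, 0 at 2-fold and 3 with a common sum. For untreated shRNA against vector it was 5, and 3 with a pseudocount of 5, 1 at 2-fold and 4 with the filter at 5 FPKM. With Bic/4AP in both it was 2, and 1 with a pseudocount of 5 and 1 at 2-fold. The other alternatives left these counts as they were. No member was counted as higher under any alternative run, and the median differences of the members kept their sign under each, from -0.42 to -0.29 (vector, Bic/4AP), -0.20 to -0.08 (shRNA, Bic/4AP), -0.40 to -0.33 (untreated, shRNA) and -0.25 to -0.16 (Bic/4AP, shRNA). Of single genes, Gria3 changed sign in both Bic/4AP comparisons and Gria4 in the vector one under 1 alternative each, with values between -0.10 and 0.08 over all of them. The scale moved members with low FPKM most. Cacng2 in untreated shRNA cultures ranged from -1.44 (pseudocount 0.1) to -0.94 (pseudocount 5), and Grin2b from -0.88 to -0.36. The gap between the Bic/4AP differences of Grin2b ranged from 0.76 to 0.32. Median-ratio scaling shifted the comparisons by 0.08, 0.09, -0.05 and -0.04. Depth is given only through the authors' bounds, and no alternative replaces the missing replicates.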
